A study of Rattus norvegicus with 24 samples.

Results

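The neurointermediate lobe of the pituitary (NIL) was compared with the rostral ventrolateral medulla (RVLM) of the hindbrain in one rat strain, the SHR, a strain with high blood pressure. The comparison was defined by the array titles alone: 5 arrays labelled SHR NIL were set against 5 labelled SHR RVLM, which made 10 of the 24 arrays of the series. Each array held RNA pooled from 5 male rats of 10 to 13 weeks (10 to 12 weeks for NIL array 2), with no treatment named. The remaining 14 arrays came from the paraventricular nucleus (PVN, 5) and supraoptic nucleus (SON, 4) of SHR and from the RVLM of the normotensive WKY strain (5), and are used below to place the members and in 2 alternative fits. The labels do not say whether rats gave tissue to more than 1 structure, so n counts pools and p-values measure the spread between these pools.

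The NIL joins 2 tissues. Its neural part holds the axon endings of hypothalamic neurons that release vasopressin and oxytocin, wrapped by glia called pituicytes, while its intermediate part consists of melanotrophs, epithelial endocrine cells that cleave pro-opiomelanocortin to alpha-MSH and are held in check by dopamine through the D2 receptor. The RVLM lies in the brainstem, where adrenaline-making and other glutamatergic neurons project to the spinal cord and set the sympathetic drive to blood vessels. Around these neurons lie interneurons, motor neurons of the cranial nerves, astrocytes and myelinated fibres.

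Intensities are the linear signals deposited by the authors, given as mean ± SD over 5 pools. Differences are NIL minus RVLM on the scale of log2(intensity + 16), with each array set to the same median, so a positive value means higher in NIL. Every difference is therefore relative to the typical probe set of an array, and it understates the change of dim genes. A gene was called when its limma p, adjusted by the Benjamini-Hochberg method over 31042 probe sets, was under 0.05, and "higher" and "lower" of a gene are used only of calls. Of 14217 genes, 8475 (59.6%) were called, 4781 (33.6%) higher in NIL and 3694 (26.0%) higher in RVLM. With the added demand of a difference of at least 1, 1270 genes (8.93%) were higher in NIL and 1295 (9.11%) higher in RVLM. Over the 31042 probe sets, 52.3% were called, 6.68% were higher in NIL and 8.25% higher in RVLM by at least 1, and groups did not overlap for 41.5%. Groups did not overlap for 50.4% of genes, and the median difference over all genes was 0.06. With so wide a background a call alone says little, and the counts below are to be read against these shares.

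Arrays resembled their own group more than the other. The mean Spearman correlation of an array was 0.956 to 0.967 with the rest of its group and 0.827 to 0.840 with the other group. The median intensity of an array was 37.8 to 45.1, and values under it are dim. The 3'/5' signal ratio of actin, a sign of RNA integrity, was 2.88 to 3.57 in NIL and 2.18 to 3.30 in RVLM, and that of GAPDH 1.344 to 1.43 and 1.13 to 1.339, so that every NIL array lay above every RVLM array in the latter. The part of RNA integrity in the differences was not tested. Among the control transcripts added before hybridization, bioB, bioD and cre were dimmer on every NIL array than on any RVLM array. Their log2 differences were −0.96, −0.87 and −0.92 (exact two-sided permutation test, p = 0.00794 for each, the smallest that 5 against 5 allows, adjusted over the 4 controls 0.0106), against −0.05 for bioC (exact permutation p = 0.833). Scaling the arrays on these controls instead, an alternative added after the data had been seen, moved the median of all probe sets to 0.47 and put 87.0% of called probe sets higher in NIL, against 51.8% with the median scaling. That scale was a mean over the probe sets of all 4 controls, though bioC did not differ like the others. Controls added at hybridization do not measure RNA per cell, and neither does the array median, so neither scale gives it.

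**Figure D1:**
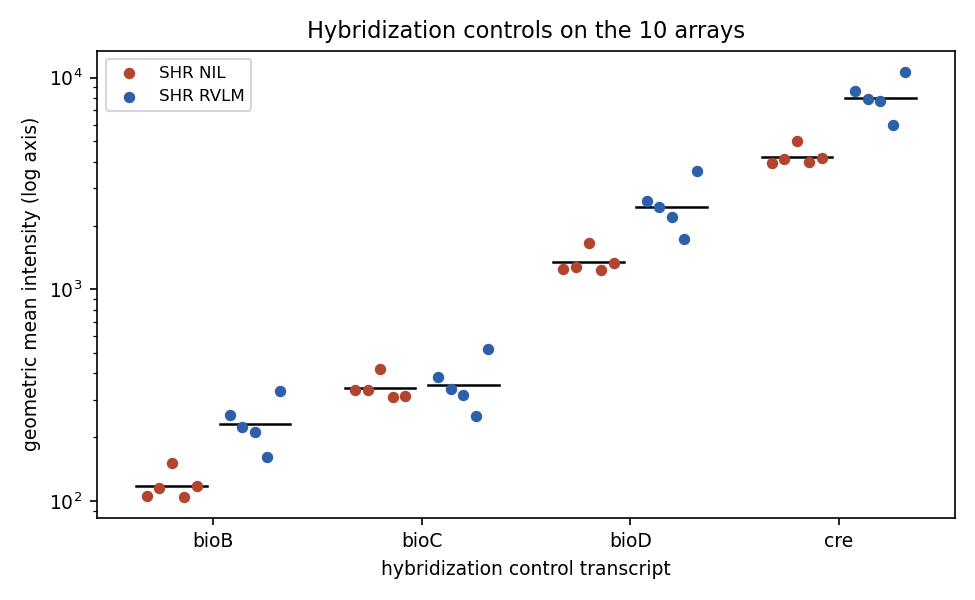
Intensity of the 4 hybridization control transcripts (geometric mean of their probe sets, log axis) on each of the 5 SHR NIL arrays (red) and 5 SHR RVLM arrays (blue), with a bar at the geometric mean of a group. For bioB, bioD and cre all NIL points lie under all RVLM points, and for bioC the groups overlap.

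The 5 marker genes of the comparison are described first. They were chosen with earlier results of these data known, so they cannot serve as a check of the labels. Pomc, the pro-opiomelanocortin gene, had intensities of 806, 687, 993, 1243 and 611 in NIL pools 1 to 5 and of 1.39, 4.00, 1.91, 16.2 and 1.37 in RVLM pools 1 to 5. The dopamine D2 receptor gene Drd2 had 1259, 957, 1291, 1227 and 1115 in NIL and 77.2, 72.6, 99.2, 67.6 and 60 in RVLM. Avp, which encodes vasopressin, had 1056, 1419, 1394, 1060 and 1200 in NIL and 13.5, 14.7, 22.0, 19.2 and 16.9 in RVLM. All 5 NIL pools lay above all RVLM pools for these genes. Mbp, a structural protein of myelin, ran the other way, with 52.7, 70.3, 43.2, 51.9 and 45.3 in NIL and 6151, 6252, 5553, 4484 and 7192 in RVLM. Nefh, the heavy neurofilament subunit of large axons, had 94.7, 103, 101, 81.4 and 53.6 in NIL and 3507, 3375, 2737, 3561 and 4621 in RVLM. Each marker thus separated the groups, which 50.4% of all genes also did. The log2 differences were 5.34 (SE 0.194) for Pomc, 3.62 (SE 0.112) for Drd2, 5.15 (SE 0.113) for Avp, −6.51 (SE 0.128) for Mbp and −5.21 (SE 0.163) for Nefh, with limma adjusted p from 1.08e-14 (Mbp) to 6.62e-12 (Pomc). In such bulk tissue, fewer cells of a type and less RNA per cell cannot be told apart.

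**Figure D2:**
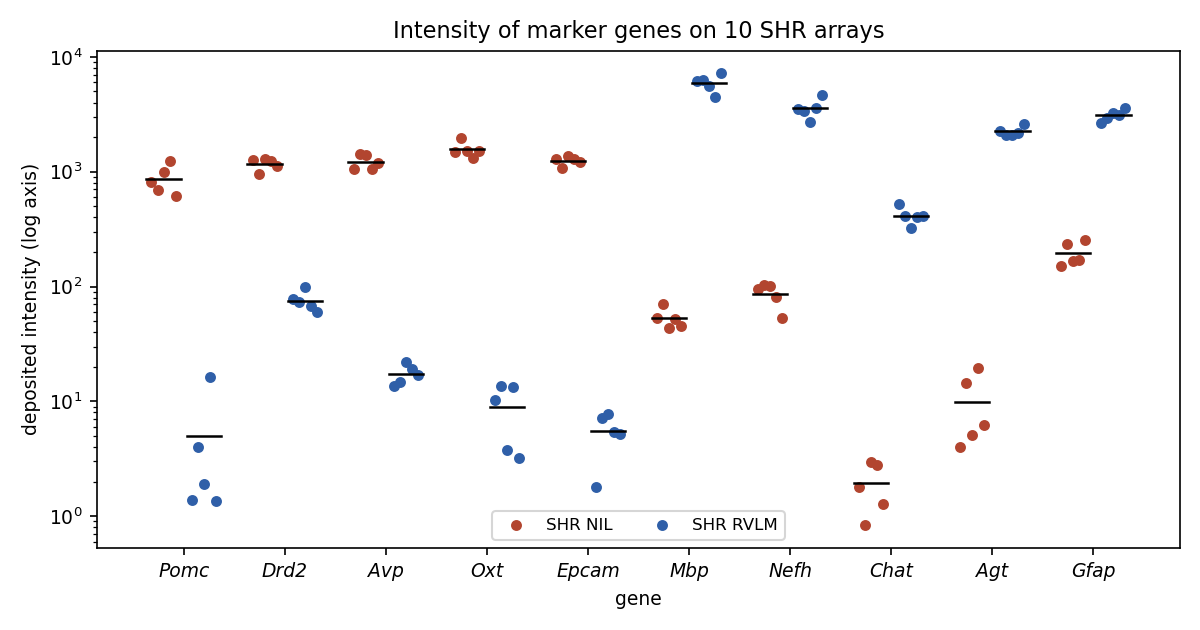
Deposited intensity (log axis) of 10 genes on the 5 SHR NIL arrays (red) and the 5 SHR RVLM arrays (blue); a point is 1 pool of rats and a bar the mean of its group. Pomc, Drd2, Avp, Oxt and Epcam are higher on every NIL array, and Mbp, Nefh, Chat, Agt and Gfap on every RVLM array.

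Genes of the melanotroph lineage were higher in NIL for the hormone, for its dopamine receptor and for several transcription factors. Beside Pomc and Drd2, the vasopressin receptor gene Avpr1b was higher (1.60, 72.5 ± 18.6 against 13.2 ± 11.8, n = 5 each here and below). Tbx19, the T-box factor that switches on Pomc in pituitary cells, had 625, 409, 510, 517 and 497 in NIL and 14.9 to 47.3 in RVLM (3.58, SE 0.167, adjusted p = 1.03e-10). The homeobox factors Six6 (4.39, 414 ± 23.6 against 3.92 ± 2.15), Pitx1 (2.46, 175 ± 27.9 against 18.8 ± 12.0) and Six3 (1.46, 32.7 ± 3.99 against 1.28 ± 0.537), which act in the development of the pituitary, were higher too. Of 9 tested genes of melanotroph hormone and receptors 4 were higher in NIL, 3 higher in RVLM and 2 not called (median −0.06). The serotonin receptor gene Htr2c, listed there but abundant in brain, led the other direction (−3.98, 81.7 ± 10.2 against 1431 ± 80.8). Of 11 pituitary transcription factors 5 were higher in NIL, 2 higher in RVLM and 4 not called (median 0.62). The factors named above are all from the NIL side, and the lowest difference in the list was −0.61. The number higher in RVLM was 1 in most alternative fits, and on the scale of the hybridization controls 9 were higher in NIL and 0 in RVLM.

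The promoter of Pomc is shown because this gene marks the melanotrophs and had no higher value than 16.2 in any RVLM pool. It covers the 250 bases before the gene's start (RefSeq, GRCr8, chr6:32659103-32659352, plus strand), written 5′ to 3′ with E-boxes (CANNTG, the motif of bHLH factors, which reads the same on both strands) in capitals.
Pomc: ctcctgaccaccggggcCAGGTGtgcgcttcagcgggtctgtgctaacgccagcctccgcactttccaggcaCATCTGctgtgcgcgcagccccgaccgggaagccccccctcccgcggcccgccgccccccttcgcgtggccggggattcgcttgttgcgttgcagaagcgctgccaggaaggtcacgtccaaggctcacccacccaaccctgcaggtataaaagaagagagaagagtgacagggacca
It holds 2 E-boxes and 1 TATA box (TATAAA), left in lower case. An E-box was found in 65.5% and a TATA box, on either strand, in 12.9% of 33469 promoters of the same length, and 30.8% held at least 2 E-boxes.

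Enzymes that cut and finish peptide hormones did not move as one. Pcsk2, the convertase that cuts pro-opiomelanocortin down to alpha-MSH, had 484, 464, 696, 632 and 581 in NIL and 53.6 to 76.4 in RVLM (2.76, SE 0.110, adjusted p = 1.91e-11). Pam, which amidates peptide ends, was also higher (1.32, 1351 ± 136 against 497 ± 25.2). The carboxypeptidase gene Cpe was bright in both, at 3968 ± 313 and 3919 ± 340, with overlapping groups, and was not called (−0.07, adjusted p = 0.722). On the scale of the hybridization controls its difference was 0.75 and called. Qpct, which forms the pyroglutamate ends of peptides, was lower in NIL (−2.94, 28.9 ± 5.98 against 311 ± 35.6). Of 11 such genes 5 were higher in NIL, 4 higher in RVLM and 2 not called (median 0.10).

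Granule genes were called in both directions as well. The granins Chgb (2.00, 2456 ± 325 against 561 ± 33.3), Chga (1.00) and Scg2 (0.52), which pack hormones into dense-core granules, were higher in NIL. Rab27a, a small GTPase that docks granules at the membrane, had 750, 742, 862, 797 and 721 in NIL and 22.9 to 43.8 in RVLM (3.90, SE 0.105, adjusted p = 2.67e-13), and its partner Sytl4 (2.81) and Rab3d (2.04) were higher as well. Vgf, a granin-like precursor of neurons, was lower (−4.21, 19.9 ± 3.28 against 619 ± 66.8), as was the granule priming factor Cadps (−2.05). Of 16 genes of secretory granules 10 were higher in NIL, 5 higher in RVLM and 1 not called (median 0.68).

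The machinery that brings new proteins into the endoplasmic reticulum was higher in NIL by smaller amounts. Of 29 genes 24 were higher in NIL, 2 higher in RVLM and 3 not called (median 0.88, against 0.06 over all genes). The oligosaccharyltransferase subunit Ddost had 1080 ± 98.2 and 312 ± 37.0 (1.66), the signal peptidase subunit Sec11a 705 ± 28.1 and 223 ± 27.8 (1.51) and the secreted stress factor Manf 694 ± 65.3 and 234 ± 48.8 (1.43). The channel subunits Sec61b (1.45) and Sec61a1 (1.25) and the chaperones Hspa5 (0.71) and Hsp90b1 (0.68) were higher too. Of 13 cytosolic ribosomal protein genes 9 were higher in NIL and 4 not called (median 0.74), such as Rplp0 (1.02, 2582 ± 162 against 1207 ± 256).

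Hormones of the anterior lobe, which is not part of the label, were bright in the NIL pools and varied widely between them. Gh1, growth hormone, had 5471, 6068, 2957, 2494 and 693 in NIL and 4.10 to 23.8 in RVLM. Prl, prolactin, had 2586, 3677, 331, 523 and 190 in NIL and at most 3.23 in RVLM. Tshb, the beta chain of thyrotropin, had 298, 2577, 233, 334 and 52.9 in NIL and 5.12 to 20.9 in RVLM. NIL pools 1 and 2 were thus high and pool 5 low for Gh1 and Prl, and every NIL pool lay above every RVLM pool. Cga, the alpha chain shared by the glycoprotein hormones, had 1644 to 3649 in NIL, and Lhb, the beta chain of luteinizing hormone, 221 to 606. The summed intensity of 6 hormone genes, these 5 and Fshb of follicle-stimulating hormone (1.60, named after its value was seen), was 11779, 16654, 5844, 5738 and 2946 in NIL pools 1 to 5 and 95.8 to 182 in RVLM.

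The differences were 6.79 (SE 0.448) for Gh1, 5.87 (SE 0.203) for Cga, 5.46 (SE 0.618) for Prl, 3.64 (SE 0.637, adjusted p = 0.000179) for Tshb and 2.54 (SE 0.218) for Lhb, and each of these 5 stayed called when any 1 array was left out. Of 10 genes of this list 8 were higher in NIL, 1 higher in RVLM and 1 not called (median 2.07). The one higher in RVLM was Trhr, the thyrotropin-releasing hormone receptor (−2.21, 30.1 ± 2.23 against 187 ± 22.7). Pomc, Tbx19, Drd2, the epithelial genes and the granule genes are also made by cells of the anterior lobe, and the part of such cells in their differences was not tested.

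**Figure D3:**
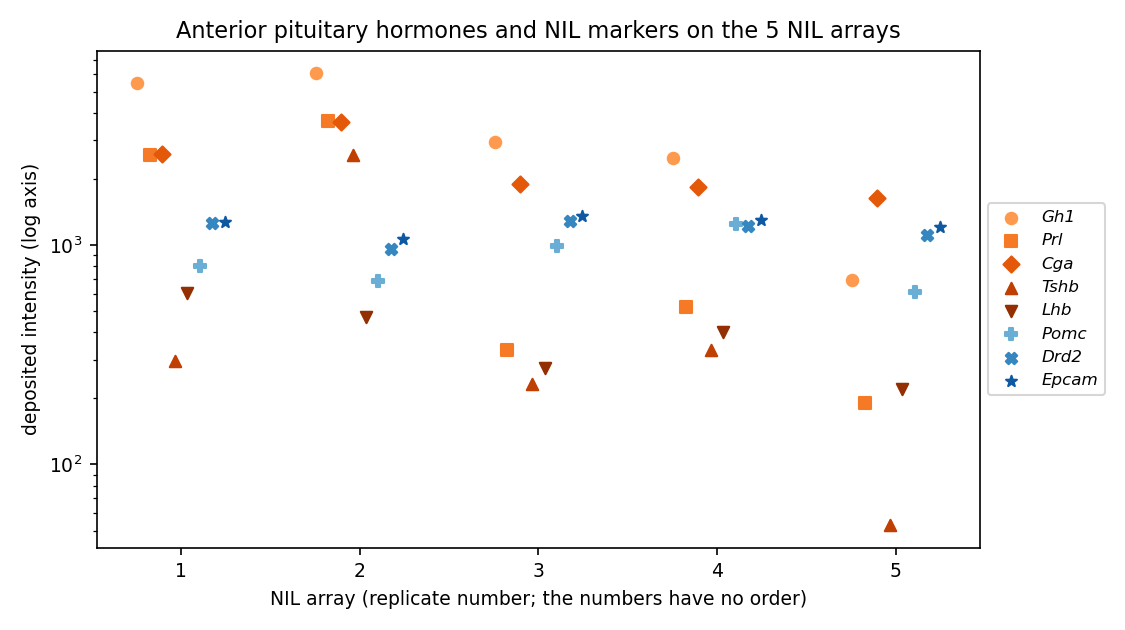
Deposited intensity (log axis) of 5 anterior pituitary hormone genes (orange to brown) and of Pomc, Drd2 and Epcam (blue) in the 5 NIL pools; a point is 1 pool. Prl runs from 190 to 3677 and Tshb from 52.9 to 2577, whereas Epcam stays between 1067 and 1357.

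Transcripts of the magnocellular hormones were also bright in NIL. Oxt, oxytocin, had 1493, 1971, 1527, 1325 and 1525 in NIL and 3.24 to 13.6 in RVLM (5.95, SE 0.140, adjusted p = 5.73e-14). In PVN and SON, where the cell bodies lie, Avp averaged 4453 and 5056 and Oxt 4118 and 4513. Pdyn, the dynorphin precursor that vasopressin neurons also make, was higher in NIL (2.67, 615 ± 98.3 against 78.3 ± 18.3). Other peptides of hypothalamic neurons were lower in NIL than in RVLM, among them galanin (Gal, −2.71, 49.1 ± 8.65 against 392 ± 84.4), Cartpt (−1.99) and corticotropin-releasing hormone (Crh, −1.75, 4.08 ± 5.20 against 47.7 ± 3.43). The list of magnocellular peptides also held releasing hormones such as Crh and an enzyme gene. In all 3 of its 10 genes were higher in NIL, 6 higher in RVLM and 1 not called (median −0.76).

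The promoter of Avp is given beside that of Pomc since the 2 genes mark the 2 tissues of the lobe (RefSeq, GRCr8, chr3:138248523-138248772, minus strand, 5′ to 3′, E-boxes in capitals). The cell bodies of the vasopressin neurons lie in PVN and SON, not in the lobe.
Avp: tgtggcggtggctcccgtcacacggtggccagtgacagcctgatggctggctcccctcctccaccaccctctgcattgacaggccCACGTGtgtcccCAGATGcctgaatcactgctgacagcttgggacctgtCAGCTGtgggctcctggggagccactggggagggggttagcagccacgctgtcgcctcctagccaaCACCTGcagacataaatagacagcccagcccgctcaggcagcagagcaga
It holds 4 E-boxes, and 3.20% of promoters held at least as many.

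Genes of pituicytes and of the floor of the forebrain from which they arise formed the next group. Rax, a homeobox gene of tanycytes and pituicytes, had 471, 436, 393, 332 and 408 in NIL and 5.12 to 9.88 in RVLM (4.14, SE 0.112, adjusted p = 2.67e-13). Its value in PVN and SON, 11 and 5.85, was as low as in RVLM. Scn7a, a sodium-sensing channel of glia outside the blood-brain barrier, had 2463, 2790, 2682, 2366 and 2880 in NIL and 121 to 218 in RVLM (3.82, SE 0.122). Lhx2 (3.73, 521 ± 31.1 against 22.7 ± 4.24), the thyroid hormone binding protein gene Crym (3.45), Otx2 (2.80) and Nkx2-1 (1.99) were higher as well. For Otx2 a dimmer probe set was called the opposite way (−0.90, 3.86 ± 0.748 against 22.2 ± 13.2). Fabp7, a fatty acid carrier of radial glia and astrocytes, was lower (−4.0, 76.8 ± 10.3 against 1397 ± 228). Of 16 genes 11 were higher in NIL, 2 higher in RVLM and 3 not called (median 2.08). The overlapping list of forebrain and pituitary patterning factors had 8 of 9 higher in NIL and 1 not called (median 1.99).

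Hox genes, which pattern the hindbrain and spinal cord, ran the other way. Of 14 genes 10 were higher in RVLM, 4 not called and 0 higher in NIL (median −0.84), led by Hoxb2 (−2.29, 12.1 ± 5.12 against 115 ± 12.4), Hoxc4 (−2.12), Hoxd4 (−1.79) and Hoxb4 (−1.74). The list held 1 gene higher in NIL on the scale of the hybridization controls, with values as deposited, with no intensity trend, with the mean of probe sets and without RVLM array 4. In Hoxb4 the RVLM pools were uneven, at 85.7, 63.3, 72.5, 49.1 and 9.07, all above the NIL range of 3.15 to 5.21. The 4 genes averaged 2.52 to 19.4 in PVN and SON and 71.0 to 128 in the RVLM of WKY.

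Epithelial genes were higher in NIL. Epcam, an adhesion molecule of epithelia, had 1280, 1067, 1357, 1298 and 1214 in NIL and 1.78 to 7.70 in RVLM (5.82, SE 0.0955, adjusted p = 3.09e-15). The simple-epithelium keratins Krt18 (4.14, 708 ± 85.0 against 23.2 ± 5.51) and Krt8 (3.71), the protease inhibitor Spint2 (3.77), E-cadherin (Cdh1, 2.89) and the splicing factor Esrp1 (2.85) were higher. Of 15 genes 13 were higher in NIL, 2 not called and 0 higher in RVLM (median 2.18).

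Capillaries of the neural lobe are known to be fenestrated, whereas those of the brainstem form the blood-brain barrier. Esm1, a proteoglycan secreted by endothelium, had 494 ± 88.3 in NIL and 3.89 ± 5.60 in RVLM (4.66, SE 0.173). Plvap, which forms the diaphragms of fenestrated capillaries (1.74, 225 ± 16.4 against 57.7 ± 28.3), and the VEGF receptor gene Kdr (1.79) were higher in NIL. In RVLM the tight junction gene Cldn5 had 508, 381, 514, 564 and 554, against 44.7, 25.3, 35.7, 54.4 and 44.9 in NIL (−3.28, SE 0.144, adjusted p = 5.56e-11). The efflux pumps Abcg2 (−2.52) and Abcb1a (−2.41) and the transporter Slco1a4 (−2.38) were higher in RVLM. So were the glucose transporter Slc2a1 (−0.70) and the lipid transporter Mfsd2a (−0.56), both of which lost their call and turned sign on the scale of the hybridization controls. Of 12 barrier genes 11 were higher in RVLM, and 1 higher in NIL, the tight junction gene Ocln (1.59, named after its value was seen), which epithelia also use (median −1.77). On the scale of the hybridization controls these counts were 7 and 2. Of 11 genes of fenestrated and general endothelium 7 were higher in NIL, 1 higher in RVLM and 3 not called (median 0.66).

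Connective tissue genes went with NIL: 15 of 17 were higher, 2 not called and 0 higher in RVLM (median 1.79). Decorin (Dcn) had 1157 ± 144 and 76.3 ± 17.1 (3.59), Igfbp2, which binds insulin-like growth factors, 3453 ± 306 and 260 ± 58.6 (3.59), Col3a1 603 ± 93.8 and 46.1 ± 4.93 (3.23), Col1a2 537 ± 94.6 and 43.5 ± 9.04 (3.13) and lumican (Lum) 717 ± 61.1 and 77.2 ± 11.8 (2.90). The summed intensity of all 17 genes was 10867 to 11876 in NIL and 2360 to 2599 in RVLM. Blood was unequal as well. Beta globin (Hbb) had 2755, 4565, 3139, 3716 and 4056 in NIL and 335 to 819 in RVLM (2.51), and 2 of 3 red blood cell genes were higher in NIL. Its part in the other differences was not tested.

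Immune genes were mixed. Cd74, the invariant chain of MHC class II, had 585, 567, 586, 544 and 704 in NIL and 18.7 to 40.7 in RVLM (3.66, SE 0.122), and the complement gene C1qa was higher too (1.09, 612 ± 77.6 against 265 ± 54.4). P2ry12, a purine receptor typical of resting microglia, was higher in RVLM (−1.42, 120 ± 16.4 against 325 ± 28.5), as was the chemokine receptor Cx3cr1 (−0.59), whose groups overlapped at 14.7 to 28.5 and 25.2 to 42.4. Cx3cr1 was not called on the scale of the hybridization controls (−0.09, adjusted p = 0.718). Of 17 genes of microglia and macrophages 10 were higher in NIL, 4 higher in RVLM and 3 not called (median 0.61). The number higher in RVLM was 2 with all 19 SHR arrays or all 24 arrays in the fit and 1 on the scale of the hybridization controls.

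**Figure D4:**
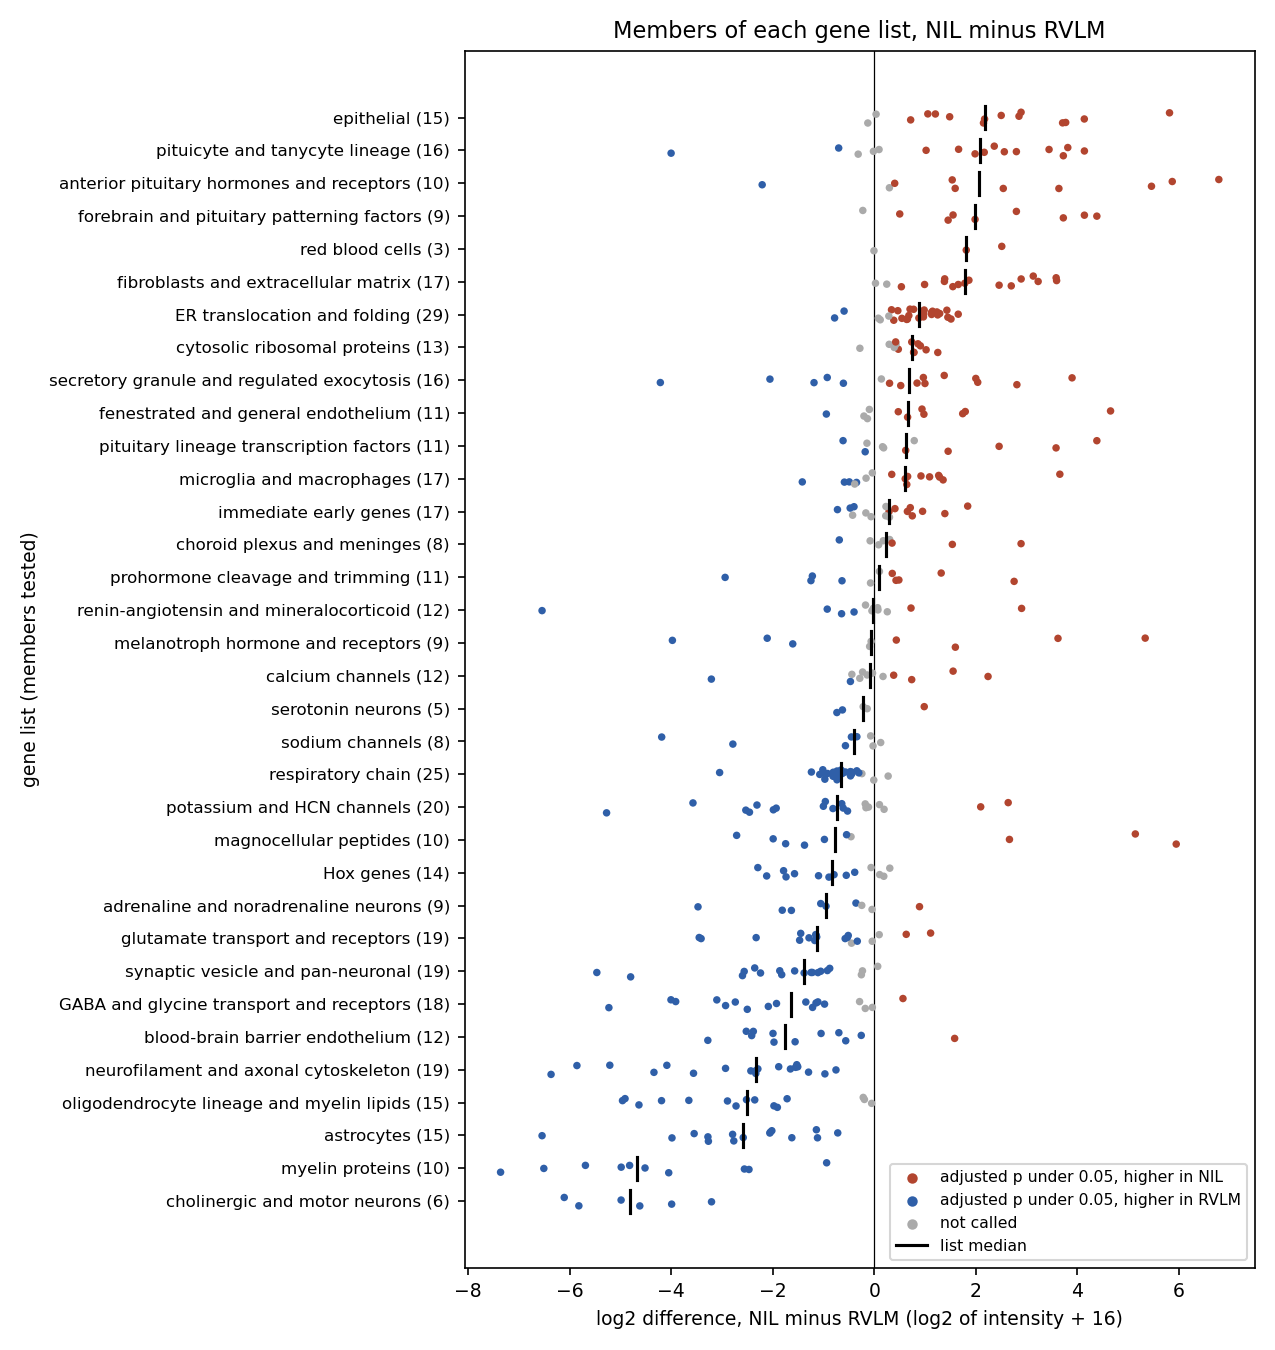
Log2 difference, NIL minus RVLM, of each tested member (point) of the 34 gene lists, red when called higher in NIL, blue when called higher in RVLM and grey when not called; the black bar is the median of a list and the number of members stands beside its name. Epithelial genes have a median of 2.18, and cholinergic and motor neuron genes of −4.80.

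Genes of adrenaline and noradrenaline neurons, for which the RVLM is known, were mostly but not all higher there. Pnmt, which makes adrenaline, had 180, 113, 251, 207 and 208 in RVLM and 0.992 to 5.81 in NIL (−3.47, SE 0.185, adjusted p = 4.90e-10), and averaged 4.05 in PVN and 7.39 in SON. Th, the first enzyme of catecholamine synthesis, had 109 to 140 in RVLM and 18.9 to 43.7 in NIL (−1.81), with higher means in PVN (243) and SON (476). The vesicular transporter Slc18a2 (−1.63) and Dbh, which makes noradrenaline (−0.95, 13.9 ± 8.39 against 38.1 ± 8.47), were higher in RVLM, Dbh no longer on the scale of the hybridization controls (adjusted p = 0.0644). Of 9 genes 6 were higher in RVLM, 1 higher in NIL and 2 not called (median −0.95), and 3 were higher in RVLM on that scale. The one higher in NIL was Gch1, which starts the synthesis of the cofactor of Th (0.89). Of 5 serotonin neuron genes 2 were higher in RVLM, 1 higher in NIL and 2 not called (median −0.22). The called ones included the receptor Htr1a (−0.74, 4.56 ± 3.84 against 17.1 ± 1.25) and the serotonin transporter Slc6a4 (−0.63, adjusted p = 0.0122, 22.3 ± 9.20 against 39.6 ± 9.33). These means lay under or near the median intensity of an array. The groups of Slc6a4 overlapped, and it was not called on the scale of the hybridization controls (−0.11, adjusted p = 0.680).

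Cholinergic and motor neuron genes had the largest median of all lists. All 6 tested were higher in RVLM (median −4.80). Slc5a7, the choline transporter, had 1302, 1212, 1137, 1232 and 1421 in RVLM and 0.871 to 7.80 in NIL (−6.11, SE 0.103, adjusted p = 3.12e-15). Chat, which makes acetylcholine, had 521, 409, 327, 401 and 413 in RVLM and 0.832 to 2.98 in NIL (−4.62). The vesicular transporter Slc18a3 (−3.99), the calcitonin gene-related peptide genes Calca (−5.82, 12.0 ± 5.50 against 1475 ± 125) and Calcb (−3.21) and the filament gene Prph (−4.99), which marks motor neurons, followed. Calca averaged 17.8 in PVN and 12.4 in SON.

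Myelin genes were higher in RVLM without exception, 10 of 10, with a median of −4.67. Mobp, an oligodendrocyte basic protein, had 3423, 3684, 3794, 3460 and 3676 in RVLM and 0.451 to 13.8 in NIL (−7.36, SE 0.129, adjusted p = 4.32e-15), the largest difference of any gene named by the rule. Ermn (−5.69), Opalin (−4.99), Mog (−4.82) and Mal (−4.52), all of the myelin sheath, followed. The other probe sets of Mbp gave −7.29 and −1.37. The summed intensity of the 10 genes was 2005 to 2415 in NIL and 19620 to 24209 in RVLM. Of 15 genes of oligodendrocytes and myelin lipids 12 were higher in RVLM, 3 not called and 0 higher in NIL (median −2.52; 1 higher in NIL on the scale of the hybridization controls). They included Olig1 (−4.96, 12.2 ± 4.24 against 819 ± 23.1), the lysophospholipase Enpp2 (−4.91), the galactolipid enzyme Ugt8 (−4.64), the receptor Gpr37 (−4.19), carbonic anhydrase 2 (Car2, −3.65) and Sox10 (−1.91), a factor that drives myelin genes. Bcas1 of myelinating oligodendrocytes, a gene of no list named for the size of its difference, was also higher in RVLM (−6.45, 16.4 ± 4.03 against 2708 ± 374). Olig2 was dim on all arrays and was not called (−0.22, 19 ± 9.70 against 22.2 ± 1.94). Without NIL array 4, where it was 36.3, it was called (−0.35, adjusted p = 0.0183).

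The promoter of Mobp is shown for its repeats of the core bound by SOX factors (ACAAAG, or CTTTGT on the other strand), in capitals (RefSeq, GRCr8, chr8:128746982-128747231, plus strand, 5′ to 3′).
Mobp: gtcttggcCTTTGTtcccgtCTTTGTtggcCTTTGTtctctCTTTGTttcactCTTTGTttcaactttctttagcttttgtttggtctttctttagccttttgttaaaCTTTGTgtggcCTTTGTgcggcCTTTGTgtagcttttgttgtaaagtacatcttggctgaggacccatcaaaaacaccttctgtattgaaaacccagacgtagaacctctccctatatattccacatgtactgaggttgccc
It holds 8 such cores. It was chosen for this count, so the rarity given next is a description and not a test, and binding to the cores was not tested. The core was found in 16.3% of 33469 promoters, and 2 promoters (0.00598%) held 8 or more. Among the 20 genes with the largest differences higher in RVLM, 12 had a promoter in the table and 2 of these held the core. Higher in NIL it was 2 of the 17 found. E-boxes lay in 9 of 12 and 13 of 17, and a TATA box in 4 of 12 and 4 of 17.

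All 15 astrocyte genes were higher in RVLM (median −2.58). Agt, angiotensinogen, which astrocytes make in the brain, had 2272, 2097, 2091, 2155 and 2595 in RVLM and 4.04, 14.5, 5.07, 19.6 and 6.24 in NIL (−6.55, SE 0.140, adjusted p = 2.21e-14), and averaged 2227 in PVN and 2467 in SON. Gfap, the astrocyte filament, had 2652, 2909, 3248, 3111 and 3566 in RVLM and 152, 236, 168, 169 and 254 in NIL (−3.99). The water channel Aqp4 (−3.55), the matrix protein Sparcl1 (−3.28), the folate enzyme Aldh1l1 (−3.27) and the glutamate transporter Slc1a2 (−2.06) followed. Of the renin-angiotensin and mineralocorticoid genes, Agt was the largest toward RVLM and Ace, the converting enzyme, the largest toward NIL (2.90), with 244, 354, 263, 263 and 255 in NIL and 15.9 to 24.2 in RVLM. Of 12 such genes 2 were higher in NIL, 4 higher in RVLM and 6 not called (median −0.03), and on the scale of the hybridization controls 6 were higher in NIL and 1 in RVLM.

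Axonal genes were higher in RVLM in 19 of 19 cases (median −2.33). Nefm, the medium neurofilament subunit, had 6264, 5776, 5837, 5187 and 6549 in RVLM and 50.5 to 78.4 in NIL (−6.37, SE 0.107), and Nefl, the light subunit, 4195 ± 513 and 60.6 ± 7.80 (−5.86). In PVN and SON these 2 averaged 358 to 586. The microtubule genes Stmn2 (−4.34) and Tubb3 (−4.09) and the synuclein Sncg (−3.56) followed. Of 19 synaptic and pan-neuronal genes 16 were higher in RVLM, 3 not called and 0 higher in NIL (median −1.38; 2 higher in NIL on the scale of the hybridization controls). The largest were the release factors Cplx1 (−5.47, 61.8 ± 10.7 against 3215 ± 263) and Vamp1 (−4.80), followed by the nuclear protein Rbfox3 (−2.60). Snap25, a core protein of vesicle fusion that endocrine cells also use, was bright in both, at 1706 ± 104 and 4788 ± 452 (−1.57). Syp had −0.92 and was not called on the scale of the hybridization controls (−0.14, adjusted p = 0.555), and Syt1 was not called on the median scale (−0.25, adjusted p = 0.0946).

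Genes of GABA, glycine and glutamate transmission were counted apart. Gad1, which makes GABA, had 763, 828, 893, 725 and 768 in RVLM and 3.75 to 9.77 in NIL (−5.23, SE 0.0940, adjusted p = 5.50e-15). The vesicular GABA and glycine transporter Slc32a1 (−4.01), the glycine receptor subunits Glrb (−3.91) and Glra2 (−3.10) and the second GABA enzyme Gad2 (−1.21) went the same way, and of 18 genes 14 were higher in RVLM, 1 higher in NIL and 3 not called (median −1.64). The vesicular glutamate transporter Slc17a6 had 699 ± 58.3 in RVLM and 55.5 ± 10.9 in NIL (−3.41), and Grm3 181 ± 27.1 and 2.81 ± 3.77 (−3.45). Slc17a7, the transporter typical of cortex, was dim in both and not called (−0.45, adjusted p = 0.114), but was called without NIL array 4 (−0.63, adjusted p = 0.0133). Of 19 glutamate genes 14 were higher in RVLM, 3 not called and 2 higher in NIL (median −1.13; 8 and 3 higher in RVLM and NIL on the scale of the hybridization controls), the larger being the kainate receptor subunit Grik1 (1.11, 105 ± 12.7 against 37.2 ± 7.39, named after its value was seen).

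Ion channels divided by type. Kcna1, a potassium channel of myelinated axons, had 668, 774, 634, 640 and 628 in RVLM and 1.61 to 3.76 in NIL (−5.27, SE 0.0765, adjusted p = 1.23e-15). Its subunit partners Kcnab1 (−3.57) and Kcna2 (−2.46) followed. In contrast the calcium-gated channel Kcnma1 (2.64, 543 ± 37.5 against 68.7 ± 5.31) and the background potassium channel Kcnk2 (2.10, 302 ± 57.7 against 54.4 ± 14.3, named after its value was seen) were higher in NIL. Of 20 potassium and HCN channel genes 13 were higher in RVLM, 2 higher in NIL and 5 not called (median −0.73), against 8 and 4 on the scale of the hybridization controls. Scn1a (−4.19, 44.4 ± 6.23 against 1025 ± 82.3) and Scn4b (−2.79) led the 5 of 8 sodium channel genes higher in RVLM, with 3 not called (median −0.40), but on the scale of the hybridization controls 2 were higher in RVLM and 4 higher in NIL. Scn7a, higher in NIL (3.82), was counted with the pituicyte genes and is not among these 8.

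Calcium channel genes went both ways. Cacna1d, an L-type subunit, had 187 ± 15.3 in NIL and 25.3 ± 7.84 in RVLM (2.24), with a dimmer probe set called the opposite way (−0.78, 6.11 ± 5.35 against 20.7 ± 5.57). The auxiliary subunit Cacna2d1 was higher in NIL (1.55, 368 ± 23.3 against 107 ± 3.29) while Cacna2d3 was higher in RVLM (−3.21, 31.1 ± 7.20 against 394 ± 12.8). Of 12 such genes 4 were higher in NIL, 2 higher in RVLM and 6 not called (median −0.09). Without NIL array 4 the number higher in RVLM was 4, and on the scale of the hybridization controls 6 were higher in NIL and 1 in RVLM.

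Respiratory chain genes were higher in RVLM by modest amounts, 22 of 25 with 3 not called (median −0.65). Cox5a was an exception in size (−3.05, 90.3 ± 18.2 against 807 ± 94.2), and Atp5f1b (−0.97) was typical. This direction rests on the scaling: with arrays scaled on the hybridization controls 2 genes were higher in RVLM and 5 higher in NIL. Of 17 immediate early genes, which cells switch on within minutes of stimulation or handling, 8 were higher in NIL, 3 higher in RVLM and 6 not called (median 0.29), against 11 and 0 on the scale of the hybridization controls. Nr4a1 (1.84, 221 ± 80.4 against 44.2 ± 6.74) and Egr1 (1.39) led. Egr1 varied in NIL, with 492 and 596 in pools 1 and 2 and 193 to 237 in the other NIL pools, against 83.8 to 133 in RVLM.

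Of 8 genes of choroid plexus and meninges 3 were higher in NIL, 1 higher in RVLM and 4 not called (median 0.24). The largest of these 3 was Cdh1 (2.89), which was also counted with the epithelial genes. On the scale of the hybridization controls 6 were higher in NIL and 0 in RVLM, and with all 19 SHR arrays 1 was higher in NIL and 0 in RVLM. Ptgds, a prostaglandin synthase of the meninges, was bright in both and not called (0.09, 3093 ± 435 against 2746 ± 491), though it was called on the scale of the hybridization controls (0.90, adjusted p = 0.00157). Ttr, the transthyretin of the choroid plexus, was the one higher in RVLM (−0.69, adjusted p = 0.0117, 27.6 to 61.2 against 41.0 to 117). That call ended with all 19 SHR arrays in the fit (adjusted p = 0.113), with all 24 arrays (0.102) and on the control scale (0.783).

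The 20 largest differences in each direction drew on these groups and added genes of no list. Higher in NIL were Adh1c, an alcohol dehydrogenase (6.36, 1997 ± 212 against 7.84 ± 5.21), Fndc3c1 (5.83, 1050 ± 67.9 against 2.20 ± 1.65), the salivary protein gene Csap1 (5.56), the chitinase gene Chia (5.54), the cardiac myosin gene Myh6 (4.86), Capn6 (4.52), the zinc finger gene Plagl1 (4.31), the calcium-binding S100g (4.00) and the epithelial adhesion gene Mpzl2 (3.96). Chia varied between NIL pools, at 668, 525, 1267, 1753 and 1187. Higher in RVLM were Itih3, of the inter-alpha-trypsin inhibitors (−5.92, 24.5 ± 5.24 against 2300 ± 125), Cend1, which acts in the cell cycle exit of neurons (−5.55), Lamp5 (−5.47, 15 ± 6.69 against 1279 ± 170) and the neuronal calcium sensor Vsnl1 (−4.95).

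These 40 genes were then followed into the other groups. Of the 20 higher in NIL, 18 had means in PVN and in SON under 25% of their NIL mean, and the other 2, Oxt and Avp, had higher means in both nuclei than in NIL. Of the 20 higher in RVLM, 13 had means in both nuclei under 25% of that in RVLM. For 3 of them, Agt, Itih3 and Gad1, PVN or SON reached at least the RVLM mean. Across the 20 genes the WKY RVLM mean was 0.803 to 1.08 times that of SHR RVLM. These levels are given as descriptions, without a test.

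**Figure D5:**
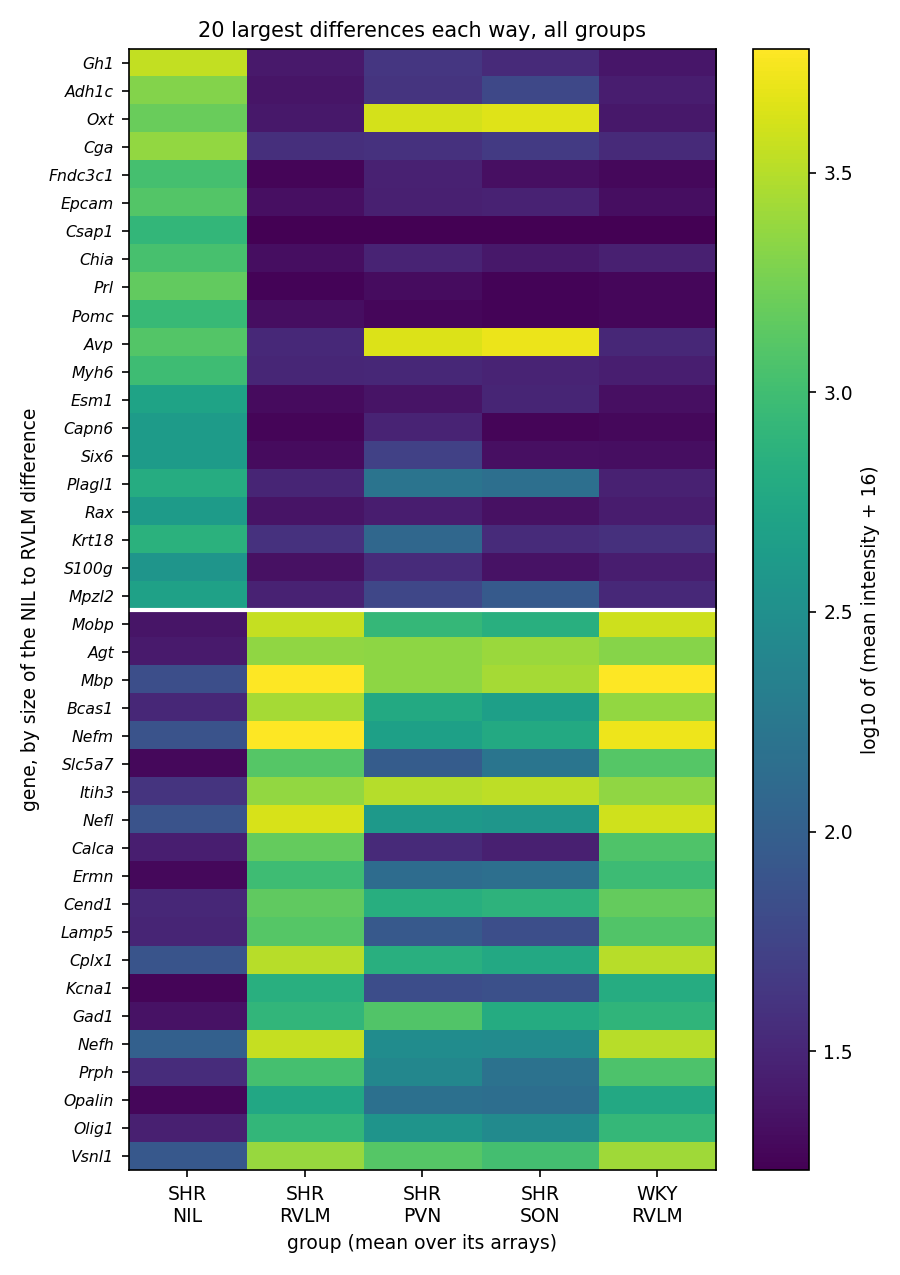
Mean intensity (colour, log10 of mean intensity + 16) of the 20 genes with the largest difference higher in NIL (above the white line) and the 20 higher in RVLM (below it) in SHR NIL, RVLM, PVN and SON and in WKY RVLM. Oxt and Avp are brighter in PVN and SON than in NIL, and the WKY RVLM mean is 0.803 to 1.08 times the SHR RVLM mean for the 20 lower genes.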

How the data were processed

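RNA was measured on Affymetrix rat arrays. The deposited values are linear probe set intensity, which the authors made with GCOS 1.2, per the submitters' processing notes. Settings of that step and detection calls were not used here. Each array had a 2% trimmed mean near 100.02, with no log step applied. RNA was stored in RNAlater, purified and amplified with MessageAmpII, per the labels' protocols.

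The table held 31099 probe sets, of which 57 controls were left out. An annotation table, updated through RefSeq gene IDs, gave 1 gene to 20826 probe sets, several to 436 and none to 9780. A gene was represented by its brightest probe set. Arrays were scaled to one median, log2(intensity + 16) was taken with no filter, and limma 3.58.1 in R 4.3.3 was fitted to the 10 arrays alone (lmFit, eBayes with an intensity trend). SE is from this fit. Samples were grouped by their titles. The comparison, the markers and the 34 gene lists were chosen with earlier results of these data known. Of 535 list entries 460 had a probe set, and the others, such as Pax7 and Pcsk1, were not analysed here.

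Genes were named by a rule: the 20 largest called differences in each direction without overlap, the 5 markers, and of each list the first 3 members and up to 6 called members with the largest differences. Not every list member that met the rule is named in the text. The named genes can therefore lean to one side, and the balance of a list is given by its counts. Other settings tried were quantile normalization, no scaling, no pseudocount or 64, filters at the 40th and 60th percentile of mean intensity, a replicate block, arrayWeights, eBayes with no trend, all 19 or 24 arrays, each array left out, the mean of a gene's probe sets, and scaling on the hybridization controls. On simulated data of 31042 probe sets, 100 were changed by 1 and 100 by 0.5. Of these 90% and 35% were called, with 4 unchanged probe sets called. So few changes make the adjusted threshold stricter than in the data, where 52.3% of probe sets were called. The simulated shares therefore do not give the sensitivity of this comparison. Motifs were searched in RefSeq promoters of GRCr8. The number of arrays limits the precision.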

Additional observations from a re-analysis of the deposited data

Results flagged for a closer look

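Among 324 groups of 5 arrays examined (the NIL and the RVLM pools of each gene in the text), 25 held an array whose gap to the nearest other array, divided by the range, exceeded 0.71, the 95% critical value. Chance flags about 1 group in 20 when values are normally distributed, which was not tested for these unscaled linear intensities. Of the 25 values set apart 19 were high and 6 low, 8 came from NIL array 4, and NIL array 2 and RVLM array 2 gave 5 each. NIL array 4 had the highest median intensity, 45.1, and its values set apart were all under that median except Atp5f1b.

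On NIL array 4 the values set apart were Crh 13.3, Th 43.7, Slc18a3 4.45, Olig2 36.3, Syt1 41.6, Grm3 9.54, Cx3cr1 28.5 and Atp5f1b 1666. On NIL array 2 they were Tshb 2577, Otx2 162, Spint2 1210, Calcb 49.3 and Ace 354. Slc6a4 was 6.12 on NIL array 1 and Cd74 was 704 on NIL array 5.

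On RVLM array 2 the values set apart were Sec61b 307, Hoxb2 93.3, Kcna1 774, C1qa 170 and Csap1 2.15. The others were Adh1c 16.7 on RVLM array 1, Gh1 23.8 and Kcnk2 79.5 on RVLM array 3, Pomc 16.2 on RVLM array 4 and Hspa5 1442 on RVLM array 5.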

How the results depend on the processing

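Of 162 genes in the text, 149 kept their direction and their side of the threshold under every alternative that gave them a value, and 157 were called on the median scale. Leaving out each array gave 15285 to 16136 called probe sets, 8038 to 8485 genes and 2554 to 2598 genes with a difference of at least 1, and among the genes in the text changed the call of Olig2 and Slc17a7, both called without NIL array 4. List counts that moved were calcium channels higher in RVLM (4 without NIL array 4), fenestrated endothelium higher in RVLM (2 without NIL array 2), Hox genes higher in NIL (1 without RVLM array 4), patterning factors higher in RVLM (1 without NIL array 4) and pituitary factors higher in RVLM (1 in most of these fits). Deviations from the group means correlated at −0.061 to 0.024 between NIL and RVLM arrays of equal number and at −0.107 to 0.085 for unequal numbers. Such correlations between 2 tissues cannot tell whether equal numbers share rats. The replicate block gave 15700 probe sets and 8191 genes and changed no call of a gene in the text. The 60th percentile filter left fewer probe sets to test and called 9486 of them (4999 higher in NIL, 4487 in RVLM), 2956 with a difference of at least 1 (1259 and 1697), and gave no value for dim genes. That count was 8125 (3875 and 4250) with no pseudocount and 2296 (896 and 1400; 1427 genes) with 64. Scaling on the hybridization controls, added after the data were seen, gave 16332 probe sets higher in NIL and 2441 in RVLM, 8306 of at least 1 (7245 and 1061), 8616 genes higher in NIL and 1126 in RVLM, and 4949 genes of at least 1. It turned Cpe (0.75), Slc2a1 (0.080) and Mfsd2a (0.17), ended the calls of Dbh, Slc6a4, Syp, Cx3cr1, Ttr and Atp5f1b, and made one of Ptgds. Slc17a7 was also called with arrayWeights and Syt1 with the mean of probe sets. The causes were not tested.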

Other observations

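Of the 4525 genes with more than 1 probe set, 3088 were called by their brightest one. Another probe set was called the same way in 1671 of them and the opposite way in 341, Otx2 and Cacna1d among them. In NIL 16 probe sets and in RVLM 25 had an intensity of 4000 or more on every array of the group.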
